A study of Mus musculus with 4 samples.

Results

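Laminins are described here through the genes of 9 of their chains, the alpha chains Lama2, Lama3, Lama4 and Lama5, the beta chains Lamb1, Lamb2 and Lamb3, and the gamma chains Lamc1 and Lamc3. They are 9 of 41128 gene identifiers in the deposited count table and were taken by name. All 9 had at least 10 counts in 1 or more libraries. Lama1, which is no member, enters only where the make-up of the alpha class needs it.

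The cells came from livers of C57BL/6 mice with experimental alcoholic hepatitis, and every group carries that treatment. The mice ate a high cholesterol fat diet freely for 40% of their calories, took the other 60% as alcohol liquid diet by intragastric feeding, and had a weekly binge on top. After collagenase digestion, hepatocytes were spun out and CD45+ cells were removed with magnetic beads, which gave the presorted CD45- cells. Sorting on Prom1 (prominin-1), CD49f and CD45 gave the Prom1+CD49f+CD45- cells, their counterpart without Prom1 (Prom1-CD49f+CD45-) and a CD45+ gate (Prom1+CD49f+CD45+). Each of the 4 populations has 1 library, made from pooled RNA of 2 mice, so no difference has a replicate check and no test or p-value is given. There is no library from untreated mice.

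A laminin is a cross-shaped trimer of 1 alpha, 1 beta and 1 gamma chain that is secreted and polymerises into the sheet on which basement membranes are built. The alpha chain carries the main binding sites for cell receptors, and the gamma chain joins the trimer to nidogen. In liver, basement membranes surround bile ducts, vessels and the mesothelium, while the sinusoids have only a sparse one. CD49f, on which all 3 sorted populations were gated, is integrin alpha 6, itself a laminin receptor.

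Summed gene counts ran from 14670300 in the Prom1-CD49f+CD45- library to 52294013 in the presorted library. Levels are TMM-scaled CPM, counts relative to library size (CPM) after a trimmed-mean scaling between libraries (TMM), with exact 95% Poisson intervals in brackets that cover counting error only. Prom1 was at 355 in the Prom1+CD49f+CD45- library and at 31.1 in the Prom1-CD49f+CD45- one. In the library labelled as sorted for Prom1 and CD45 it was at 11.4, below both and below the 67.1 of the presorted cells. Ptprc, the CD45 gene, was at 14.5 in that library against 21.0 in presorted cells. The data thus go against that label, so the text speaks of a labelled Prom1+CD49f+CD45+ library. Of the marker lists, the 8 cholangiocyte genes summed to 24006 in Prom1+CD49f+CD45- cells, 9143 in Prom1-CD49f+CD45-, 381 in the labelled Prom1+CD49f+CD45+ library and 3835 before sorting. The 8 blood endothelial genes summed to 93.5, 5286.5, 12983 and 10040 in the same order. The 5 mesothelial genes reached 332 in Prom1-CD49f+CD45- cells and at most 83.8 elsewhere.

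The gamma chain gene Lamc3 set the Prom1+CD49f+CD45- library apart. Lamc3 (ENSMUSG00000026840; chromosome 2, 31887291 to 31946539, plus strand, mm10) encodes the gamma 3 chain, which can replace gamma 1 in the trimer. It stood at 423 (417 to 430) scaled CPM in Prom1+CD49f+CD45- cells and at 31.3 (28.4 to 34.4) in Prom1-CD49f+CD45- cells. The labelled Prom1+CD49f+CD45+ library held 8.58 (7.47 to 9.81) and the presorted library 99.8 (96.8 to 103). All 4 intervals lay apart, with the highest library 49.4-fold above the lowest. Against the presorted cells Lamc3 was 4.25-fold higher (4.10 to 4.39) in Prom1+CD49f+CD45- cells, 3.19-fold lower (2.89 to 3.52) in Prom1-CD49f+CD45- cells, and 11.6-fold lower (10.1 to 13.4) in the labelled Prom1+CD49f+CD45+ library.

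Lamc1 (ENSMUSG00000026478; chromosome 1, 153218922 to 153332786, minus strand) encodes gamma 1, the gamma chain of most laminins of adult tissue. Its levels were 62.0 (59.4 to 64.7) in Prom1+CD49f+CD45- cells, 40.6 (37.4 to 44.1) in Prom1-CD49f+CD45-, 97.9 (94.1 to 102) in the labelled Prom1+CD49f+CD45+ and 101 (98.2 to 104) in presorted cells. The last 2 did not differ beyond counting error, and the whole range was 2.49-fold. The pair of gamma genes therefore ordered the libraries differently. The count of Lamc3 was 6.83 times that of Lamc1 (6.53 to 7.15) within the Prom1+CD49f+CD45- library, 0.770 times (0.679 to 0.874) in Prom1-CD49f+CD45- cells, 0.0876 times (0.0758 to 0.101) in the labelled Prom1+CD49f+CD45+ library and 0.986 times (0.946 to 1.03) in presorted cells. These are ratios of counts inside a library and depend on no scaling between libraries. How they compare across libraries also does not depend on gene length.

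Of the summed counts of Lamc1 and Lamc3, Lamc3 made up 87.2% (86.7 to 87.7, Clopper-Pearson) in Prom1+CD49f+CD45- cells, but 43.5% (40.4 to 46.6) in Prom1-CD49f+CD45- cells. It held 8.06% (7.05 to 9.16) in the labelled Prom1+CD49f+CD45+ library and 49.7% (48.6 to 50.7) before sorting. These shares cover the pair only and are not shares of the whole gamma class. Per kilobase of exon, Lamc3 was 90.3% of the pair in Prom1+CD49f+CD45- cells. The share was 51.1% for the Prom1-CD49f+CD45- library, 10.6% for the labelled Prom1+CD49f+CD45+ one and 57.3% for presorted cells. The level of Lamc3 in Prom1+CD49f+CD45- cells was 13.5 times (12.3 to 14.9) that of the Prom1-CD49f+CD45- library.

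**Figure D1:**
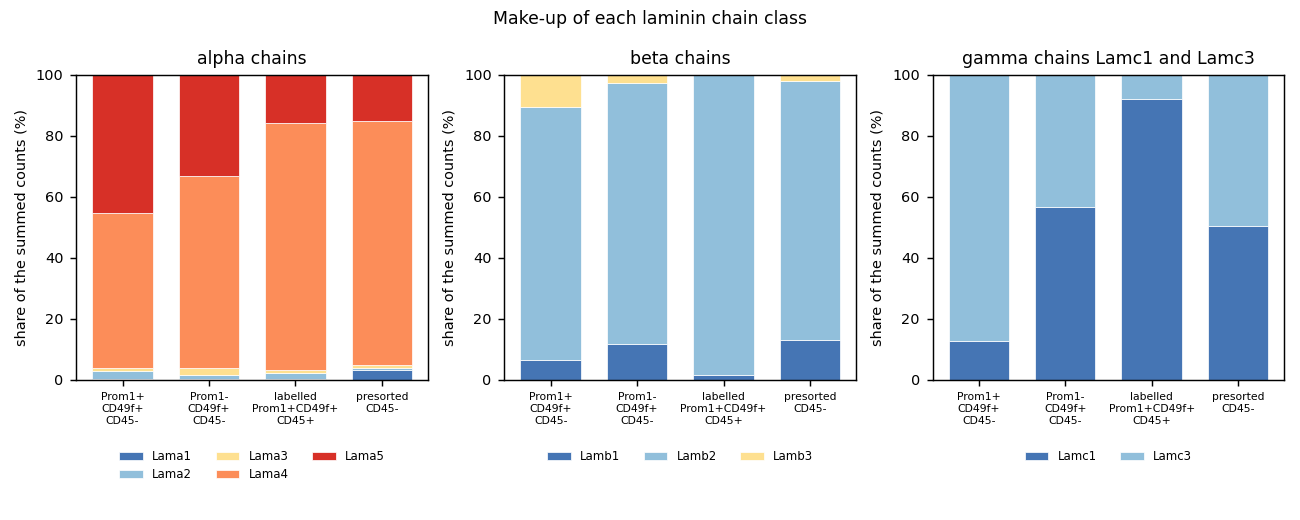
Share of each chain (y axis, % of the summed counts of the chains drawn) in each of the 4 libraries (x axis), for the alpha chains (Lama1 included), the beta chains and the gamma chains Lamc1 and Lamc3, with 1 library per bar. Lamc3 is 87.2% of the counts of that pair in Prom1+CD49f+CD45- cells and 8.06% in the labelled Prom1+CD49f+CD45+ library, and Lama5 is 45.4% and 16.0% of alpha counts.

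Among the beta chains, Lamb3 had the same order of libraries as Lamc3. Lamb3 (ENSMUSG00000026639; chromosome 1, 193207699 to 193343878, plus strand) encodes beta 3, which is found with the alpha 3 chain in epithelial basement membranes. It was at 22.0 (20.5 to 23.7) in Prom1+CD49f+CD45- cells, 3.04 (2.20 to 4.09) in Prom1-CD49f+CD45-, 0.483 (0.250 to 0.844) in the labelled Prom1+CD49f+CD45+ and 5.60 (4.93 to 6.34) in presorted cells. The 4 intervals did not overlap, although the labelled Prom1+CD49f+CD45+ value rests on 12 counts. Lamb3 was 7.25-fold higher (5.33 to 10.1) in Prom1+CD49f+CD45- than in Prom1-CD49f+CD45- cells, and 3.93-fold higher (3.40 to 4.56) than in presorted cells.

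Lamb1 (ENSMUSG00000002900; chromosome 12, 31265234 to 31329644, plus strand), the gene of the widely expressed beta 1 chain, was highest before sorting. The presorted library held 32.8 (31.1 to 34.5), against 13.1 (11.9 to 14.4) in Prom1+CD49f+CD45- and 12.6 (10.9 to 14.6) in Prom1-CD49f+CD45- cells, whose intervals overlapped. The labelled Prom1+CD49f+CD45+ library held 2.34 (1.77 to 3.02), 14.0-fold less (10.8 to 18.6) than the presorted one. The 8 stellate and portal mesenchyme markers summed to 671 scaled CPM in the presorted library, 648 in Prom1-CD49f+CD45-, 61.8 in the labelled Prom1+CD49f+CD45+ and 38.2 in Prom1+CD49f+CD45- cells. Dcn alone gave 529.9 of the 648. Of the 8, Lrat, Pdgfrb, Col1a1 and Col3a1 were called lower in Prom1-CD49f+CD45- cells relative to presorted ones and Acta2 higher. The list median log2 ratio was -1.37 there, against -1.38 for Lamb1. For Prom1+CD49f+CD45- over presorted cells, 7 of the 8 were lower, at a median of -5.01 against -1.32 for Lamb1. The 6 hepatocyte markers summed to 28424 before sorting, 10078 (Prom1+CD49f+CD45-), 5626 (Prom1-CD49f+CD45-) and 686 (labelled Prom1+CD49f+CD45+), the order of Lamb1. The median log2 ratios of these markers to presorted cells, -3.08, -2.50 and -5.27, did not keep that order. The part of other cells in the level of Lamb1 was not tested.

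Lamb2 (ENSMUSG00000052911; chromosome 9, 108479736 to 108490530, plus strand) encodes beta 2, a chain of vascular and kidney basement membranes and of the nerve-muscle synapse. Its levels were 169 (165 to 174) in Prom1+CD49f+CD45- cells, 93.0 (88.1 to 98.2) in Prom1-CD49f+CD45-, 159 (154 to 164) in the labelled Prom1+CD49f+CD45+ and 212 (208 to 217) in presorted cells. That 2.28-fold range was the smallest of the beta chains. Lamb2 held the largest share of beta counts in each library, from 82.8% in Prom1+CD49f+CD45- to 98.3% in the labelled Prom1+CD49f+CD45+ cells. The share of Lamb3 was 10.8% (10.1 to 11.5) in Prom1+CD49f+CD45- cells, but 2.79% (2.03 to 3.75) or less in the other libraries.

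Lama4 was the leading alpha chain by counts in each library, and lowest in the CD49f+CD45- sorts. Lama4 (ENSMUSG00000019846; chromosome 10, 38965515 to 39110188, plus strand) encodes alpha 4, known from endothelial and other vessel wall basement membranes. It was at 130 (126 to 134) in Prom1+CD49f+CD45- cells, 105 (99.8 to 111) in Prom1-CD49f+CD45-, 329 (322 to 336) in the labelled Prom1+CD49f+CD45+ and 244 (240 to 249) in presorted cells. All 4 intervals lay apart. Both Lama4 and the sum of the 8 blood endothelial markers were highest in the labelled Prom1+CD49f+CD45+ library and next in presorted cells. The lowest library of Lama4 was Prom1-CD49f+CD45-, where that sum was 5286.5, and the lowest of the sum was Prom1+CD49f+CD45-, at 93.5. The part of endothelial cells in the level of Lama4 was not tested.

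Lama5 (ENSMUSG00000015647; chromosome 2, 180176373 to 180225859, minus strand) encodes alpha 5, the widespread alpha chain of adult epithelial and vessel basement membranes. It was highest in Prom1+CD49f+CD45- cells, at 116 (113 to 120), followed by 64.8 (61.6 to 68.0) in the labelled Prom1+CD49f+CD45+, 55.8 (52.0 to 59.8) in Prom1-CD49f+CD45- and 45.9 (44.0 to 48.0) in presorted cells. It was 2.53-fold higher (2.40 to 2.67) than in presorted cells. Against Prom1-CD49f+CD45- cells the ratio was 2.08 (1.93 to 2.25), with the lower bound under 2-fold and so not called, while scaling by library totals gave 2.44 and a call. Its share of alpha counts was 45.4% (44.3 to 46.4) in Prom1+CD49f+CD45-, 33.3% (31.4 to 35.2) in Prom1-CD49f+CD45-, 16.0% (15.2 to 16.7) in the labelled Prom1+CD49f+CD45+ and 15.1% (14.5 to 15.7) in presorted cells.

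The remaining alpha chains were at low levels. Lama2 (ENSMUSG00000019899; chromosome 10, 26980036 to 27619758, minus strand), the gene of the alpha 2 chain of muscle and nerve sheath, was at 6.77 (5.93 to 7.70) in Prom1+CD49f+CD45- cells, 1.98 (1.31 to 2.86) in Prom1-CD49f+CD45-, 7.21 (6.19 to 8.35) in the labelled Prom1+CD49f+CD45+ and 2.27 (1.85 to 2.76) in presorted cells. It thus formed a high pair, the Prom1+CD49f+CD45- and the labelled Prom1+CD49f+CD45+ libraries, and a low pair, with overlap within each pair and none between them. Lama3 (ENSMUSG00000024421; chromosome 18, 12333819 to 12583013, plus strand) encodes alpha 3, a partner of Lamb3. It was at 2.63 (2.11 to 3.23) in Prom1+CD49f+CD45- cells, 4.03 (3.05 to 5.22) in Prom1-CD49f+CD45-, 3.46 (2.77 to 4.28) in the labelled Prom1+CD49f+CD45+ and 2.81 (2.34 to 3.35) in presorted cells. Each neighbouring pair in that order overlapped, and Lama3 was called in none of the 6 comparisons, with at most 125 counts in a library. Its partner gene Lamb3 had a 45.6-fold range across the same libraries and Lama3 a 1.53-fold range.

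**Figure D2:**
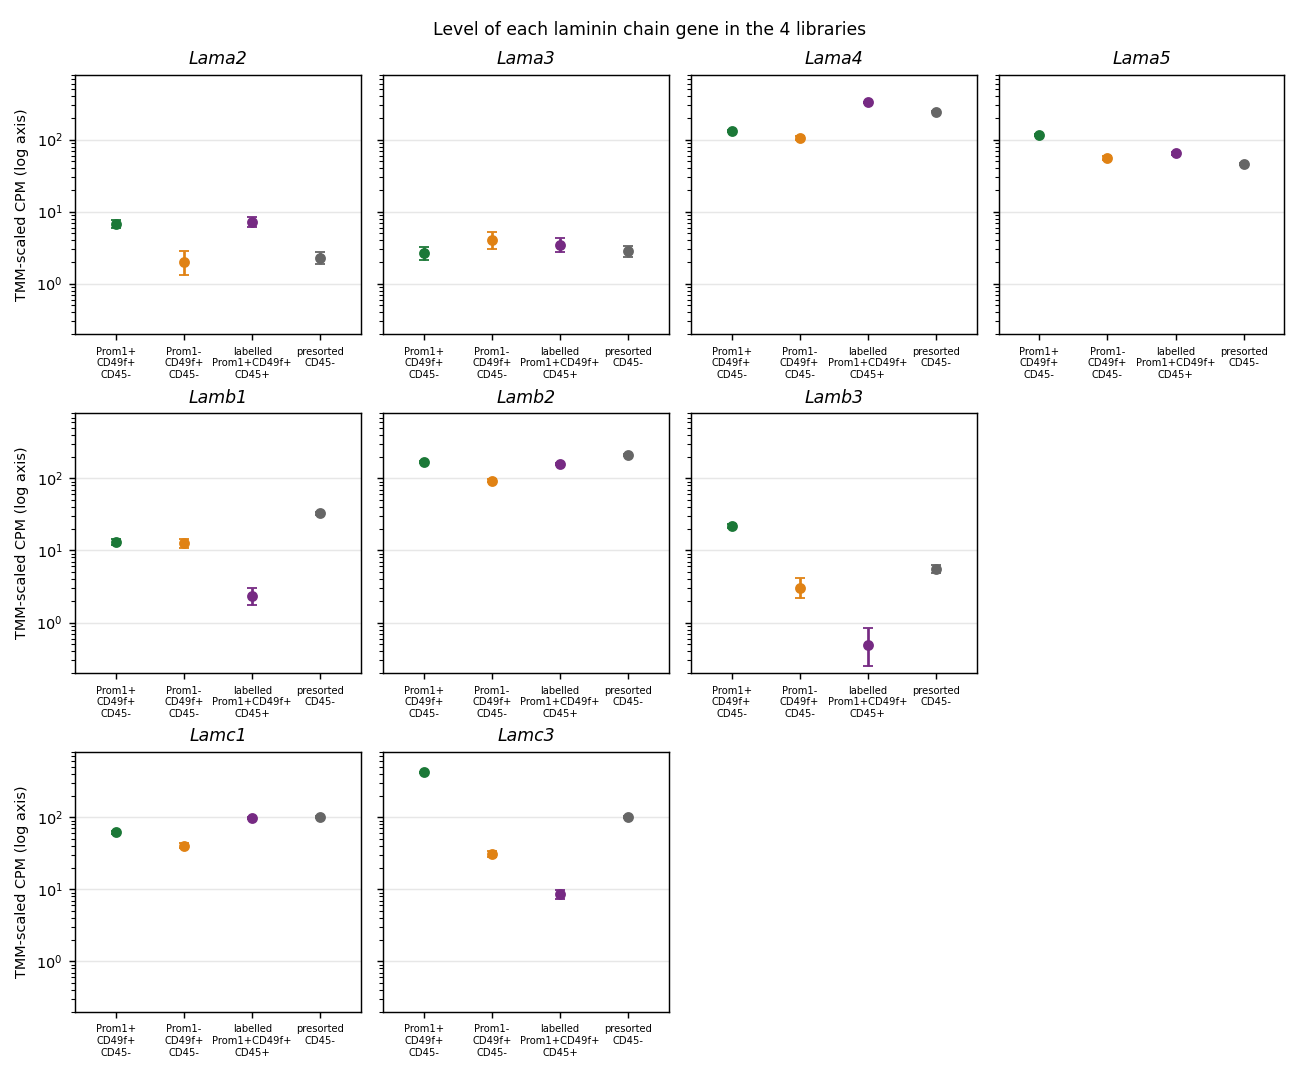
TMM-scaled CPM (y axis, log scale) of each of the 9 laminin chain genes in the 4 libraries (x axis), 1 library per point, with exact 95% Poisson intervals as bars. Lamc3 runs from 8.58 to 423 and Lamb3 from 0.483 to 22.0, while Lama3 stays between 2.63 and 4.03.

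In bulk libraries, fewer cells of a type and less RNA per cell cannot be told apart. The 8 cholangiocyte markers, at 24006 in Prom1+CD49f+CD45- and 381 in the labelled Prom1+CD49f+CD45+ library, were highest and lowest in the same libraries as Lamc3 and Lamb3. The middle of the order differed, because the marker sum was 9143 in Prom1-CD49f+CD45- cells against 3835 before sorting, whereas Lamc3 was lower there and Lamb3 was at a ratio of 0.542 (0.383 to 0.752), not called. Of the 8 markers, each with at least 10 counts in every library, Krt7, Krt19, Epcam and Spp1 were called higher in Prom1-CD49f+CD45- cells relative to presorted ones and none lower, while Cdh1, at 183 against 373 scaled CPM, was not called. The part of bile duct cells in the laminin differences was not tested.

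Levels of different chains are compared here per length, as scaled CPM per kilobase of annotated exon. That scale holds only if the libraries cover whole transcripts, and the series title names a 3' tag method. On that scale Lamc3 led in Prom1+CD49f+CD45- cells at 69.5, followed by Lamb2 at 27.8, Lama4 at 10.8, Lama5 at 10.2 and Lamc1 at 7.49. Lamb2 was first in Prom1-CD49f+CD45- cells, with 15.3, and in presorted cells, with 34.9, and Lama4 in the labelled Prom1+CD49f+CD45+ library at 27.3. With the longest transcript as the length, or with none, Lama4 came before Lamb2 in the last 3 libraries, while Lamc3 and Lamb2 stayed first and second in Prom1+CD49f+CD45- cells. In Prom1-CD49f+CD45- cells Lamc3 at 5.14, Lamc1 at 4.91 and Lama5 at 4.90 had overlapping intervals.

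Per kilobase, Lamc1 and Lamc3 together exceeded the summed alpha and the summed beta chains in the Prom1+CD49f+CD45- library. They reached 77.0 scaled CPM per kilobase there, against 21.7 for alpha and 32.5 for beta chains. In the presorted library the sums were 28.6 for Lamc1 and Lamc3, 25.6 for alpha and 39.1 for beta chains. In Prom1-CD49f+CD45- cells they were 10.0, 14.2 and 17.0, and in the labelled Prom1+CD49f+CD45+ library 13.2, 33.9 and 26.4. The order of the alpha and beta sums in presorted and Prom1-CD49f+CD45- cells depends on the length used. With the longest transcript, Lama4 alone was at 40.4 and 17.4 in them, against Lamb2 at 37.7 and 16.5. The place of Lamc1 and Lamc3 above the alpha sum in presorted cells depends on it too. With the longest transcript they were at 13.3 and 17.0 there, together below Lama4 alone. A trimer takes 1 chain of each class, and transcript levels do not give the amount of trimer.

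The Prom1+CD49f+CD45- and Prom1-CD49f+CD45- libraries differ in the Prom1 gate, and also in cell make-up, with blood endothelial sums of 93.5 and 5286.5 and mesothelial sums of 3.85 and 332. The 6 lymphatic endothelial markers summed to 404 and 3075, with 1 called higher and 3 lower, and Ccl21a alone gave 2473 of the 3075. The 6 hepatocyte markers summed to 10078 and 5626, with 1 called higher and 3 lower. The part of these cells in the laminin ratios was not tested. A chain is called where the whole exact 95% interval of its ratio lies beyond 2-fold. Of the 9 chains, Lama2, Lamb3 and Lamc3 were higher and none lower, where 15.5% of 21640 genes were called higher and 12.7% lower. Lama2 was 3.42-fold higher (2.31 to 5.26). The median log2 ratio of the 9 was 0.86, against 0.45 over all genes, or 0.31 with genes at 0 set to the floor of 3 counts. Higher calls made up 54.8% of all calls. Library totals, which moved each log2 ratio by 0.23, gave 66.9%, and DESeq2 size factors, which moved it by -0.17, gave 45.5%. Lamb1, at a ratio of 1.04 (0.869 to 1.24), falls below 1 with DESeq2 size factors, and the other 8 chains kept their side of 1 under both. The 6 comparisons share the 4 libraries, so their counts are not independent.

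Set against the presorted cells, from which it was sorted, the Prom1+CD49f+CD45- library had 4 chains higher, Lama2, Lama5, Lamb3 and Lamc3, and Lamb1 lower, where 27.6% of genes were called higher and 15.6% lower. Lama2 was 2.98-fold higher (2.35 to 3.80). Lamb1 was 2.50-fold lower (2.25 to 2.79), but at a ratio of 0.533 with library totals and not called. Library totals also put Lama3 and Lamb2, which were not called, on the other side of 1.

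In Prom1-CD49f+CD45- cells no chain was higher than in presorted cells, where 9.78% of genes were, and 5 were lower, where 14.1% were. They were Lama4, Lamb1, Lamb2, Lamc1 and Lamc3, at 2.28-fold (Lamb2) to 3.19-fold (Lamc3) lower. This count depends on the scaling: only Lamc1 and Lamc3 were left under library totals, and likewise under DESeq2 size factors. The median log2 ratio of the 9 chains was -1.19, against 0.03 over all genes. Higher calls were 40.9% of all calls, 52.5% under library totals and 51.5% under DESeq2 size factors.

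The labelled Prom1+CD49f+CD45+ library had Lama2 higher than the presorted cells and Lamb1, Lamb3 and Lamc3 lower, where 23.8% of genes were called higher and 12.1% lower. Lama2 was 3.17-fold higher (2.47 to 4.09) and Lamb3 11.6-fold lower (6.52 to 22.7). Lamc1 was at a ratio of 0.968 (0.921 to 1.02), which library totals put above 1. Against this library, Prom1+CD49f+CD45- cells had 3 chains higher, where 12.5% of genes were, and 1 lower, where 13.1% were. Lamc3 was 49.4-fold (43.1 to 56.8), Lamb3 45.6-fold (25.9 to 88.6) and Lamb1 5.61-fold higher (4.26 to 7.50), and Lama4 was 2.53-fold lower (2.44 to 2.63). Lama2 did not differ beyond counting error there, at 0.939 (0.769 to 1.15).

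Between Prom1-CD49f+CD45- cells and the labelled Prom1+CD49f+CD45+ library, Lamb1, Lamb3 and Lamc3 were higher in the former and Lama2, Lama4 and Lamc1 lower, where 13.0% of genes were called higher and 17.7% lower. Lamc3 was 3.65-fold higher (3.09 to 4.32), and Lama2 3.65-fold lower (2.44 to 5.64). Higher calls were 42.2% of all calls, and 54.6% with DESeq2 size factors, under which Lamc1, at a ratio of 0.481, was not called.

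**Figure D3:**
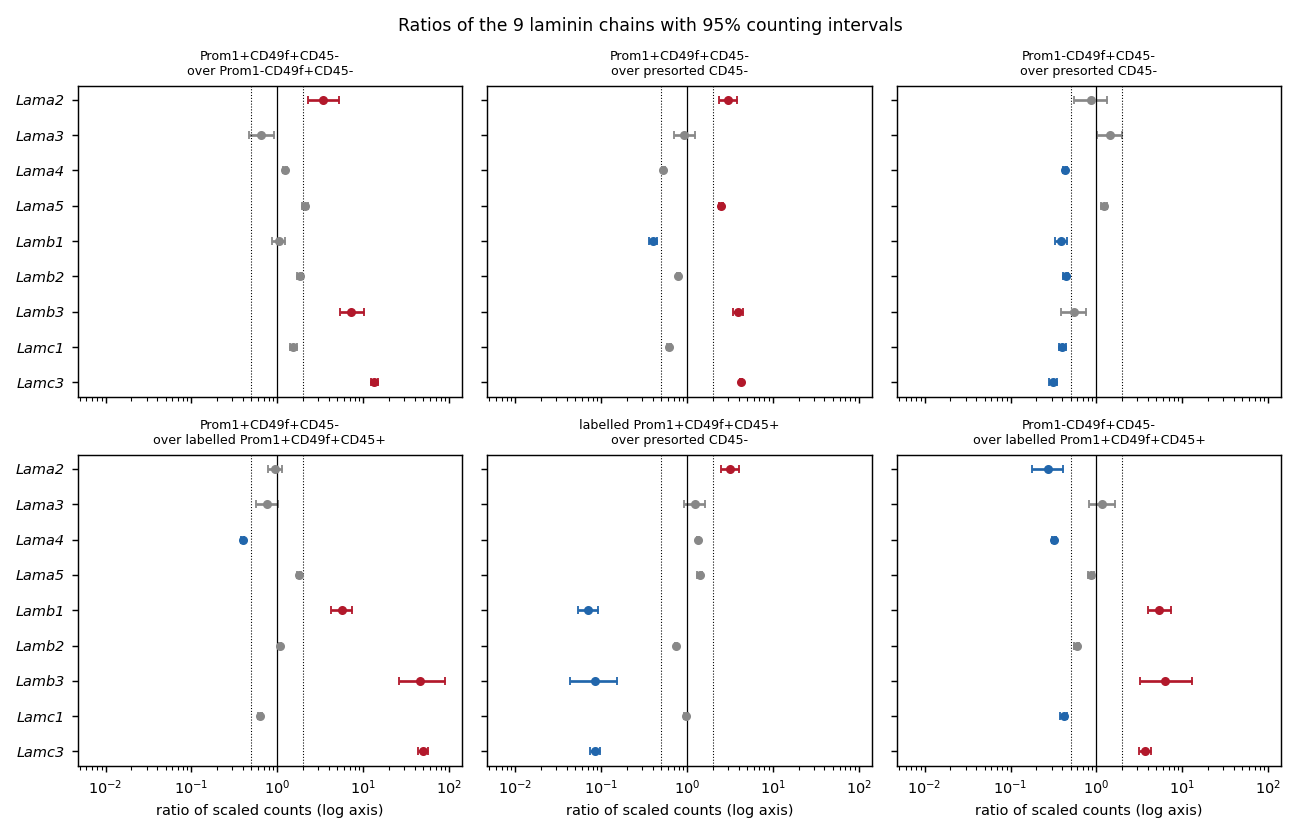
Ratio of scaled counts (x axis, log scale) of each of the 9 chains (y axis) in the 6 pairs of libraries, with exact 95% intervals, dotted lines at 2-fold either way, red for chains called higher, blue for lower and grey for not called. Lamc3 lies at 13.5, 4.25 and 49.4 in the 3 panels with Prom1+CD49f+CD45- cells on top, and Lama3 is grey in each panel.

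The RefSeq promoter table (GRCm38.p6, the build of mm10) matched 5 of the 9 chains. The windows run from 250 bases before to 50 after an annotated start. Those of Lamb3 and Lama5 are shown because these chains were highest in Prom1+CD49f+CD45- cells, with Lamb1, which was not, for contrast. Capitals mark matches on either strand to the motifs of AP-1 (TGANTCA), TEAD (GGAATG), the GC box (GGGCGG) and the TATA box (TATAAA), none of which overlap here.
Lamb3 (chr1:193301993-193302292, plus strand): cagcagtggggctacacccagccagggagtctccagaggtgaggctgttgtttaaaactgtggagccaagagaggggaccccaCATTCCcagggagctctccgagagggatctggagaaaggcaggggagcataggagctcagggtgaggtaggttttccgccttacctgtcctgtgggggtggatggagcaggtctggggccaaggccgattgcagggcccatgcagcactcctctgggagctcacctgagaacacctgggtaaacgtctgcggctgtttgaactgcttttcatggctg
Lama5 (chr2:180225810-180226109, minus strand): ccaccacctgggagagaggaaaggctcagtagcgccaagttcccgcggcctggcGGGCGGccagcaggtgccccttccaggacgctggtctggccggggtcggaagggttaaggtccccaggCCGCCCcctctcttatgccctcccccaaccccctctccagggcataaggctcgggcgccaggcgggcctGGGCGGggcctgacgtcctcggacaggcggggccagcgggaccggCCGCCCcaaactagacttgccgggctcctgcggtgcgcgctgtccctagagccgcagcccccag
Lamb1 (chr12:31265043-31265342, plus strand): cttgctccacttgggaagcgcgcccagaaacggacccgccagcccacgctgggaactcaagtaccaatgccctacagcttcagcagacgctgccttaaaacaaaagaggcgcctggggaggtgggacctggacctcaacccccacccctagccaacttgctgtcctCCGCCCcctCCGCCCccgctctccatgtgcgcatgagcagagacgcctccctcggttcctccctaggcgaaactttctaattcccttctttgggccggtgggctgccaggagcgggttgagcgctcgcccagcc
The Lamb3 window held 1 TEAD match and no GC box, at 59.3% G and C, and the window of its other listed start held no match to any of the 4 motifs. Lama5 had 4 GC boxes at 72.7% G and C, and Lamb1 had 2 at 63.7%. Of the windows not printed, that of Lamb2 held no match to the 4 motifs, at 44% G and C. The window of Lama2 held 1 GC box, at 50.3%. At least 1 match to the TEAD motif was present in 14.7% of all 32851 promoter windows of that length, to the GC box in 35.7%, to AP-1 in 7.81% and to the TATA motif in 13.6%. A match describes these letters only, and no binding was measured.

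Genes with the most similar pattern were taken by the root mean square distance between log2 levels (with 0.1 CPM added) centred over the 4 libraries, among 12888 genes with at least 100 counts in a library, predicted gene models left out. Nearest to Lamc3 were Bche, the butyrylcholinesterase gene, at 0.07, and Myh14, a non-muscle myosin heavy chain gene, at 0.12. Bche stood at 398 in Prom1+CD49f+CD45- cells, 32.1 in Prom1-CD49f+CD45-, 7.94 in the labelled Prom1+CD49f+CD45+ and 102 in presorted cells, close to Lamc3 in each. For Lamb3 they were Ano1, a calcium-activated chloride channel gene, at 0.03, and Dsc2, a desmosomal cadherin gene, at 0.04. Lama5 was nearest to Map2k6 (0.04) and Proser3 (0.06), Lama4 to Uhmk1 (0.05) and Lrch3 (0.05), and Lamc1 to Tent4b (0.01) and Top2b (0.03). Lamb1 was nearest to Xkr9 (0.05) and Pxmp2 (0.07), Lamb2 to Actr1b (0.01) and Acad12 (0.02), Lama2 to Carf (0.08) and Hhat (0.10), and Lama3 to Ddx39 (0.04) and Mob4 (0.04).

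Likeness over 4 libraries is common. Within a distance of 0.25 of Lamb2 lay 1116 genes, and within the same distance of Lamc3 lay 18 and of Lamb1 10. Among the chains themselves, Lamc3 and Lamb3 were each other's nearest, at 0.36, and so were Lama4 and Lamc1, at 0.25, and Lama2 and Lama5, at 0.58. Lamb1 was 1.29 from its nearest chain, Lamb3, the largest such distance.

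The list of 20 basement membrane partners, proteins that join laminin in the sheet, was split between Prom1+CD49f+CD45- and Prom1-CD49f+CD45- cells. Of the 20, 9 were called higher and 6 lower, beside the 15.5% and 12.7% of all genes, with a median log2 ratio of 1.72 against 0.45. Type IV collagen, the second network of the sheet, divided by chain: Col4a3, Col4a4, Col4a5 and Col4a6 were higher, while Col4a2 was lower and Col4a1, at 0.570 (0.547 to 0.595), was not called. Col4a5 was at 128 scaled CPM in Prom1+CD49f+CD45- cells, 18.5 in Prom1-CD49f+CD45-, 2.86 in the labelled Prom1+CD49f+CD45+ and 25.4 in presorted cells, so that its order of libraries was that of Lamc3. Col4a1 was at 158, 278, 1286 and 1149 in the same sequence, and thus lowest where Col4a5 was highest.

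The nidogens, which link laminin to type IV collagen through the gamma chain, were lower in Prom1+CD49f+CD45- than in Prom1-CD49f+CD45- cells. Nid1 was at 19.0 scaled CPM in Prom1+CD49f+CD45- and 144 in Prom1-CD49f+CD45- cells, 7.57-fold lower (6.93 to 8.28), and Nid2 13.0-fold lower (7.91 to 22.5). Ntn4, a netrin that binds laminin and breaks its polymer, was 4.24-fold lower (4.07 to 4.41), and Sparc, a collagen-binding matrix protein gene, 4.34-fold lower (4.26 to 4.42). Agrn, the heparan sulfate proteoglycan agrin that ties laminin to dystroglycan, was 3.39-fold higher (3.21 to 3.58), and Col18a1, the precursor of endostatin, 4.36-fold higher (4.04 to 4.72). Smoc1 was 9.28-fold higher (7.98 to 10.9) and its paralog Smoc2 22.5-fold lower (13.6 to 39.6). Blood endothelial markers, at 93.5 in Prom1+CD49f+CD45- and 5286.5 in Prom1-CD49f+CD45- cells, were lower in the same direction as Nid1, Nid2, Col4a2, Ntn4, Sparc and Smoc2. The mesothelial, mesenchymal, lymphatic endothelial and leukocyte marker sums were lower too, and the cholangiocyte, hepatocyte and macrophage sums higher. Smoc2 was at 11.2 in Prom1-CD49f+CD45- cells but at 0.967 in the labelled Prom1+CD49f+CD45+ library, where the blood endothelial sum was highest. The part of these cell types in the differences was not tested.

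Of 15 laminin receptors and membrane partners, 5 were higher and 4 lower in Prom1+CD49f+CD45- than in Prom1-CD49f+CD45- cells, beside 15.5% and 12.7% of all genes, with a median log2 ratio of 0.50 against 0.45. Itga3, the other integrin alpha chain that binds epithelial laminins, was 6.39-fold higher (5.75 to 7.12), and Itgb4, the partner of CD49f in hemidesmosomes, 4.32-fold higher (3.75 to 4.99). Dag1, the dystroglycan gene, was 2.96-fold higher (2.77 to 3.16), and the syndecan genes Sdc2 and Sdc4 3.53-fold and 3.12-fold. The syndecan gene Sdc1 went the other way, at 2.45-fold lower (2.34 to 2.56), and Rpsa was 2.43-fold lower (2.37 to 2.48). Itga1, a collagen and laminin receptor chain, was 3.60-fold lower (3.29 to 3.95) and Mcam, which binds alpha 4 laminin, 14.3-fold lower (12.9 to 16.0). Itga6 itself, at 72.9 against 50.5 scaled CPM, and Itgb1, at 518 against 497, were not called. Itga3 ordered the libraries as Lamc3 did, from 165 in Prom1+CD49f+CD45- through 36.0 in presorted and 25.8 in Prom1-CD49f+CD45- cells to 6.77 in the labelled Prom1+CD49f+CD45+ library. Itgb4, at 65.3, 12.6, 15.1 and 3.91 in that sequence, had the same extremes but not the same middle.

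**Figure D4:**
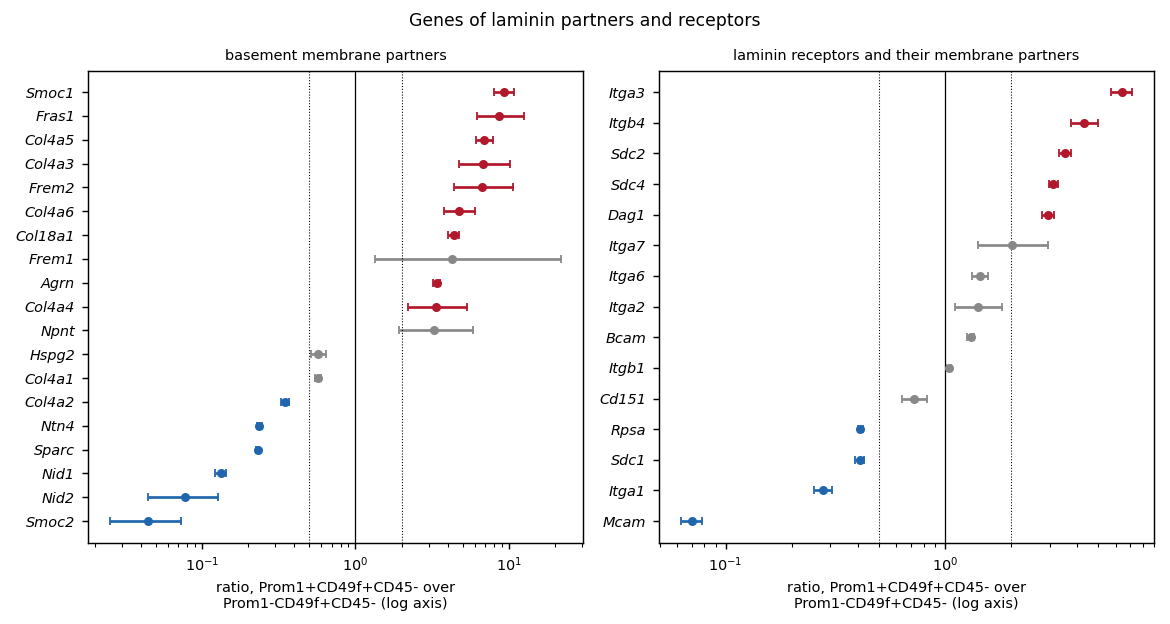
Ratio of scaled counts in Prom1+CD49f+CD45- over Prom1-CD49f+CD45- cells (x axis, log scale) for basement membrane partners and laminin receptors (y axis), with exact 95% intervals, red for called higher, blue for lower and grey for not called. Smoc1 lies at 9.28 and Itga3 at 6.39 on the high side, Smoc2 at 22.5-fold and Mcam at 14.3-fold lower on the other, and Col15a1, with 0 counts in Prom1+CD49f+CD45- cells, is not drawn.

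Of 6 hemidesmosome genes, Itgb4 was called higher in this comparison and none lower, which is near the 15.5% and 12.7% of all genes. Col17a1, the collagen of that junction, was at 0 counts in Prom1+CD49f+CD45- and at 0.141 scaled CPM in Prom1-CD49f+CD45- cells. Among 12 genes of laminin processing and assembly, Bmp1, a protease that cleaves laminin and collagen precursors, was 4.09-fold higher (3.64 to 4.61). Mmp2, a gelatinase gene, was 4.71-fold lower (2.60 to 8.83) and Lgals3, the galectin-3 gene, 7.99-fold lower (6.68 to 9.60), while the other 9 were not called. With 1 of 12 higher and 2 of 12 lower, these counts also lie near the 15.5% and 12.7% of all genes.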

How the data were processed

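RNA of liver cells was measured in 4 libraries, 1 per sorted or presorted population. The authors deposited estimated counts per gene, with 50.5% to 60.5% whole values in a library, and a second table of normalized signal values, CPM with 1 added. Per the submitters' processing notes the tools were TopHat2 and Partek with mm10; settings, annotation and use of strand were not stated in these sources. The series title names a 3' tag method and the labels' protocols a stranded messenger RNA kit, so levels per length hold only if the libraries cover whole transcripts. Columns were matched to populations by the design text; the column named CD45 was taken as the presorted cells.

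Symbols, positions and exon lengths came from GENCODE vM21 (mm10), which matched 40254 of 41128 identifiers. Counts were rounded, and scaled by TMM (edgeR 4.0.16, R 4.3.3). Ratios have exact conditional binomial intervals over the 21640 genes reaching 10 counts in any library, levels exact Poisson and shares exact binomial ones, all at 95%. The calls were run on simulated Poisson counts. That is the model the intervals assume, so the run cannot show how calls hold under variation between libraries. Reads without molecular identifiers are not independent molecules, so intervals can be too narrow. Antisense gene models overlap exons of Lama2, Lama3 and Lamc3; those in the table held at most 6 counts in a library.

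Alternatives were library totals, DESeq2 1.42.0 size factors, the authors' deposited signal values, other count filters, other call limits and other lengths. The 9 members and the gene lists were chosen with earlier results of these data known, and genes were named as all 9 members, up to 4 list members by mean level with those that show a split, and the 2 nearest patterns of each member; further list members were named after their values were seen. Some genes of the fixed lists are not reported here and were left out of the counts and shares.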

Additional observations from a re-analysis of the deposited data

How the results depend on the processing

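No call of a chain changed direction under the alternatives run. Of 54 calls (9 chains in 6 comparisons), 48 stayed the same with library totals, 50 with DESeq2 size factors, 50 with the authors' deposited values and a 2-fold limit, 54 with TMM without a filter, 49 with TMM over genes with at least 100 counts, and 53 without the interval. The following were chosen after seeing the data: TMM without the library labelled Prom1+CD49f+CD45+ kept 27 of 27 calls, library totals without the 2 repeat-like gene models most abundant in Prom1-CD49f+CD45- cells kept 48, and shares were also computed among the 9 members only. Those models, Gm26870 and Gm10800, were far lower in presorted cells, at 44.4 and 36.3 scaled CPM, than in each sorted library. They were at 14878.5 and 14136 in Prom1-CD49f+CD45- and at 4974 and 4625 in Prom1+CD49f+CD45- cells. The labelled Prom1+CD49f+CD45+ library held 2907 and 2642. The origin of this difference between sorted and presorted libraries was not tested. For Prom1+CD49f+CD45- over Prom1-CD49f+CD45- cells, library totals gave 5 chains higher in place of 3. For Prom1+CD49f+CD45- over presorted cells, the 1 chain called lower became 0 with library totals, with and without the 2 repeat-like models, and with the 100-count filter. For Prom1-CD49f+CD45- over presorted cells, the 5 lower became 2 under library totals, 2 under DESeq2 size factors, and 1 with the 100-count filter, without the repeat-like models, and with the authors' deposited values. A 4-fold limit kept 37 of the 54 calls. It left 2 of 3 higher for Prom1+CD49f+CD45- over Prom1-CD49f+CD45- cells (Lama2 lost), 1 of 4 higher and 0 of 1 lower for Prom1+CD49f+CD45- over presorted cells, 0 of 5 lower for Prom1-CD49f+CD45- over presorted cells, 0 of 1 lower for Prom1+CD49f+CD45- over the labelled Prom1+CD49f+CD45+ library, 0 of 1 higher for that library over presorted cells, and 1 of 3 higher and 0 of 3 lower for Prom1-CD49f+CD45- cells over it. In the order of the 9 chains by level per length, 3 kept their rank in Prom1-CD49f+CD45- cells without a length, and 5 in presorted cells with the longest transcript and also 5 without a length. The 4 chains with their highest class share in Prom1+CD49f+CD45- cells stayed 4 per kilobase and among the 9 members only. No replicate could be left out, and no paired analysis was possible because each group had 1 library. Depth limits Lamb3 in the labelled Prom1+CD49f+CD45+ library (12 counts) and Lama2 in Prom1-CD49f+CD45- cells (28 counts).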

Other observations

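Netrins share the laminin-type domains of the chains' amino ends. Of 5 such laminin-related genes in the table with at least 10 counts in a library, Ntn1, a secreted guidance netrin, was 72.3-fold lower (41.8 to 137) when Prom1+CD49f+CD45- cells were set against Prom1-CD49f+CD45- cells. Its levels were 0.379 scaled CPM in Prom1+CD49f+CD45- cells, 27.4 in Prom1-CD49f+CD45-, 5.80 in the labelled Prom1+CD49f+CD45+ and 12.2 in presorted cells. Megf9, a membrane protein with laminin-type repeats, was 2.66-fold higher (2.26 to 3.15), and Ntn5, Ntng1 and Ntng2 were at 1.27 scaled CPM or less in each library.

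Lama1, the alpha 1 chain known from embryonic basement membranes, was at 9.41 (8.53 to 10.4) scaled CPM in presorted cells and at 0.350 (0.181 to 0.612) in Prom1+CD49f+CD45- cells, 0.636 (0.291 to 1.21) in Prom1-CD49f+CD45- and 1.69 (1.22 to 2.29) in the labelled Prom1+CD49f+CD45+ cells. It was thus below the presorted level in all 3 sorted libraries, as Lamb1 and Lamb2 were. Lamc1 was too, but its interval in the labelled Prom1+CD49f+CD45+ library overlapped the presorted one. Library totals put Lamb2 in Prom1+CD49f+CD45- cells, and Lamc1 in the labelled library, above the presorted level.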
